A study of Mus musculus with 11 samples.

Results

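The exchangeable apolipoproteins are the small lipid-binding proteins that move between lipoprotein particles in plasma. They were taken here as 10 genes chosen by symbol, Apoa1, Apoa2, Apoa4, Apoa5, Apoc1, Apoc2, Apoc3, Apoe, Apom and Apoh, and all 10 had a row among the 13636 genes of the deposited liver table. In male C57BL/6J mice given a mimic of the microRNA miR-30c, 2 of the 10 passed the test against each control group: Apoa2 was lower and Apom was higher. Beside them, 32.0% of all genes passed against the scramble oligomer and 37.1% against PBS. The Apoa2 call was lost under some other ways of scaling the libraries. The other 8 members did not pass the test, and among them Apoa4 had the widest spread between libraries.

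Exchangeable apolipoproteins are built largely of amphipathic helices that bind phospholipid at the particle surface. Apob, which is not among them, stays with 1 particle for life. Apoa1 and Apoa2 are the main structural proteins of high-density lipoprotein (HDL). Apoe is the ligand by which receptors of the liver take up remnant particles, and the C apolipoproteins control how fast lipoprotein lipase and those receptors act on triglyceride-rich particles. Apom, a lipocalin that carries sphingosine-1-phosphate on HDL, and Apoh, a plasma glycoprotein that binds anionic phospholipid, travel with lipoproteins but have other folds. The liver makes all of them, and in mice the gut is a further source of Apoa1 and Apoa4.

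The labels tell the 3 groups of liver libraries apart only by what had been injected. All mice began a Western diet when 8 weeks old, a month before the first injection, so that the control groups carried the diet as well. The first control group received PBS (4 libraries, replicates 1 to 4). The second control group received a scramble oligomer (3 libraries, replicates 1 to 3), and the third group the miR-30c mimic (4 libraries, replicates 1 to 4). Either oligomer was given over 6 weeks at doses that rose from 2.5 to 5.0 and 7.5 mg/kg. Whether every library is from a mouse of its own is not given in the labels, so the p-values describe only how far these libraries spread, which may be technical. Mimic against scramble addresses the miR-30c sequence apart from oligomer injection, mimic against PBS adds the oligomer itself, and scramble against PBS covers the oligomer alone.

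Values are deposited by the authors as scaled CPM, reads of a gene relative to a scaled library total. If the smallest step in a column stands for 1 read, the columns hold 39705157 to 101380174 counted reads, and the members between 2464 (Apom) and 697188 (Apoe) reads per library. The 14 measured hepatocyte markers were present throughout, with summed values of 45844 to 59366. Mimic replicates 1 and 4 stood apart. The Mup genes, for major urinary proteins, held 12.5% and 11.6% of their column totals, against 34.8% and 41.3% in mimic replicates 2 and 3 and 37.9% to 52.9% in the controls. Serum amyloid A genes, of the acute phase response, held 2.61% and 2.05%, against 0.699% and 0.720% in the other mimic libraries and at most 0.0211% in the controls. Results that rest on these libraries are given with and without them. In bulk RNA, fewer cells of a type and less RNA per cell cannot be told apart.

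The sequence that defines the treatment is that of the mature microRNA. RefSeq lists mmu-miR-30c-5p at 2 places on GRCm38.p6, at chr1:23291714-23291736 on the plus strand and at chr4:120769584-120769606 on the minus strand. Whether the injected mimic had exactly this sequence is not given in the sources used here. Its seed, bases 2 to 8, is in capitals, and below it stands a stretch of the 3′ UTR of Mttp, which encodes the microsomal triglyceride transfer protein and has been described as a target of this microRNA, with the match to the seed in capitals.
mmu-miR-30c-5p: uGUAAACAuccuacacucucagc
Mttp 3′ UTR: gagagcacagTGTTTACatatttacct
The Mttp stretch lies at chr3:138090968-138090994 on the minus strand of GRCm38, and the match starts at base 71 of the longest annotated 3′ UTR. The letters TGTTTAC were searched for on the transcript strand in the longest annotated 3′ UTR of each gene. They were found in 1831 of 11449 genes of the table that had one (16.0%) and in 0 of the 10 members, whose 3′ UTRs ran from 64 bases (Apoa1) to 1185 bases (Apoa5). This says only that these letters are not in those windows. Mttp itself had values of 66.4, 59.0, 71.5 and 80.1 in the mimic libraries, below every scramble value (117 to 130.3) and every PBS value (128 to 143), with a log2 change against scramble of -0.82 ± 0.10 (SE; limma, adjusted p = 0.00019). With library totals it was -0.23 and did not pass (limma, adjusted p = 0.45).

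For the 2 genes that passed the test, the RefSeq promoter windows (GRCm38.p6, 250 bases before to 50 bases after the start site) are shown because the genes went in opposite directions. RefSeq windows were found for 8 of the 10 members. Each was searched on both strands for 8 motifs: CAAAGTCCA (of the HNF4 type), AGGTCA and GGGTCA (nuclear receptor half-sites), GTTAAT (of the HNF1 type), TATAAA (the TATA box), TTCNNNGAA (of the STAT type), TGACGT (of the CRE type) and TTGCNNAA (of the C/EBP type). Capitals mark every match to any of them in these windows.
Apoa2, chr1:171224804-171225103, plus strand: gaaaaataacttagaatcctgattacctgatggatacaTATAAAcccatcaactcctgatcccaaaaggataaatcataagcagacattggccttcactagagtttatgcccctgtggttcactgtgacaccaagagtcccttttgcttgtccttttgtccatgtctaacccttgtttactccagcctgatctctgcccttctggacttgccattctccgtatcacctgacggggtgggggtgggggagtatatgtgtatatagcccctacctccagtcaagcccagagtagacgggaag
Apom, chr17:35131752-35132051, minus strand: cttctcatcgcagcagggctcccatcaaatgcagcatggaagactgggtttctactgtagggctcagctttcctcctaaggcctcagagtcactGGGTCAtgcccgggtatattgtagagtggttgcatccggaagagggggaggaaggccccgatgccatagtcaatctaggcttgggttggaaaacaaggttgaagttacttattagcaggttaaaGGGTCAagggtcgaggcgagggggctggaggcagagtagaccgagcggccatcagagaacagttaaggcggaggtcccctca
In the Apoa2 window the only match was TATAAA, with its first base at -212. In the Apom window GGGTCA was found at -156 and at -32. No matches overlapped. GGGTCA was present in 13.7% and TATAAA in 13.6% of the 32817 RefSeq windows of this length. The shares of the other motifs were 0.475% (CAAAGTCCA), 16.3% (AGGTCA), 7.10% (GTTAAT), 8.29% (TTCNNNGAA), 7.51% (TGACGT) and 10.8% (TTGCNNAA). A match here describes letters and is not a binding site. Apoa2 has a further RefSeq start upstream, whose window held AGGTCA once and TTGCNNAA at 2 places.

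In mimic against scramble, 2 of 10 members (1 in each direction) had a limma adjusted p under 0.05. Of all 13636 genes 32.0% passed in this comparison, 17.3% higher and 14.7% lower, so that the members' share of 20.0% was below that of genes at large. The median log2 change of the members was 0.10, against 0.00 over all genes. In mimic against PBS the same 2 members passed, beside 37.1% of all genes (20.0% higher and 17.1% lower), and the median over the members was again 0.10. Values of the groups did not overlap for 4 members in mimic against scramble, beside 40.8% of all genes. They did not overlap for 3 members in mimic against PBS, beside 31.7% of all genes. The 2 comparisons share the mimic libraries. All changes below are on the log2(value + 1) scale, as mimic minus control.

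**Figure D1:**
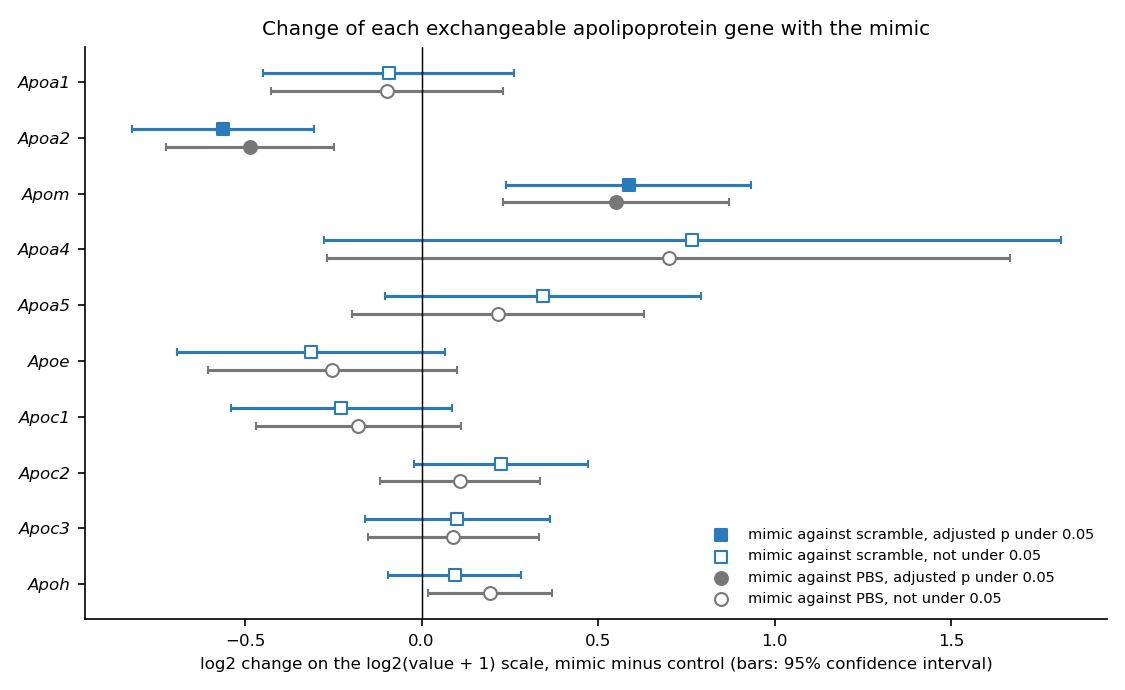
Log2 change of each member in mimic against scramble (squares) and mimic against PBS (circles), with 95% confidence intervals from limma. Filled symbols had an adjusted p under 0.05: only Apoa2 (-0.56 and -0.49) and Apom (0.59 and 0.55) were filled, and the interval of Apoa4 was the widest.

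Of the HDL proteins, Apoa2, the second most abundant protein of HDL (chromosome 1, 171225054 to 171226379, GRCm38, plus strand), changed most clearly. Its values were 1774, 1781, 1724 and 1679 in PBS replicates 1 to 4, and 1694, 2083 and 1747 in scramble replicates 1 to 3. In mimic replicates 1 to 4 they were 1125, 1286, 1298 and 1263. Every mimic library lay below every control library, and the gap between the groups was wider than the range of the mimic group. The mimic mean was 1243 ± 79.9 (SD, n = 4), the scramble mean 1842 ± 211 (SD, n = 3) and the PBS mean 1739.5 ± 47.6 (SD, n = 4). Apoa2 fell by 32.3% against scramble, a log2 change of -0.56 ± 0.12 (SE; 95% interval -0.82 to -0.31; limma, adjusted p = 0.0047). Against PBS it fell by 28.6%, with a log2 change of -0.49 ± 0.11 (SE; limma, adjusted p = 0.0057). Without mimic replicates 1 and 4 the log2 change was -0.50 against scramble (limma, adjusted p = 0.021) and -0.43 against PBS (limma, adjusted p = 0.031). The call rests on the scaling between libraries, as described with the scaling plot: with library totals the log2 changes were 0.03 and 0.12, and neither passed.

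Apom (chromosome 17, 35128997 to 35132050, minus strand) was the other member that passed, and it was the one with the lowest values. It stood at 48.2, 45.9, 50.7 and 44.8 in the PBS libraries and at 39.0, 42.5 and 59.4 in the scramble libraries. In the mimic libraries it stood at 67.5, 71.9, 88.2 and 55.5. All mimic values were above all PBS values, while mimic replicate 4 was below scramble replicate 3. The scramble mean was 47.0 ± 10.9 (SD, n = 3) and the mimic mean 70.8 ± 13.5 (SD, n = 4). Apom rose by 0.59 ± 0.16 on the log2 scale (SE; 95% interval 0.24 to 0.93; limma, adjusted p = 0.016). Against PBS (47.4 ± 2.63, SD, n = 4) the log2 change was 0.55 ± 0.15 (SE; limma, adjusted p = 0.013). Without scramble replicate 1 or without scramble replicate 2, the call against scramble was lost, at log2 changes of 0.47 and 0.53 and adjusted p of 0.078 and 0.059. Without mimic replicates 1 and 4 Apom still passed, with a log2 change of 0.77 against scramble (limma, adjusted p = 0.011) and of 0.74 against PBS (limma, adjusted p = 0.0094).

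Apoa1, the scaffold of HDL and the activator of the enzyme LCAT (chromosome 9, 46228580 to 46230466, plus strand), did not pass. Its values were 2408, 3148, 3048 and 2423 with PBS, 2330, 2925 and 2970 with scramble, and 2468, 2865, 2664 and 2262 with the mimic. The 3 groups overlapped, and the spread within the PBS and scramble groups was wider than the gaps between the group means. The log2 change against scramble was -0.09 ± 0.16 (SE; 95% interval -0.45 to 0.26; limma, adjusted p = 0.69), and against PBS -0.10 ± 0.15 (SE; limma, adjusted p = 0.63). These intervals leave room for changes of either sign.

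**Figure D2:**
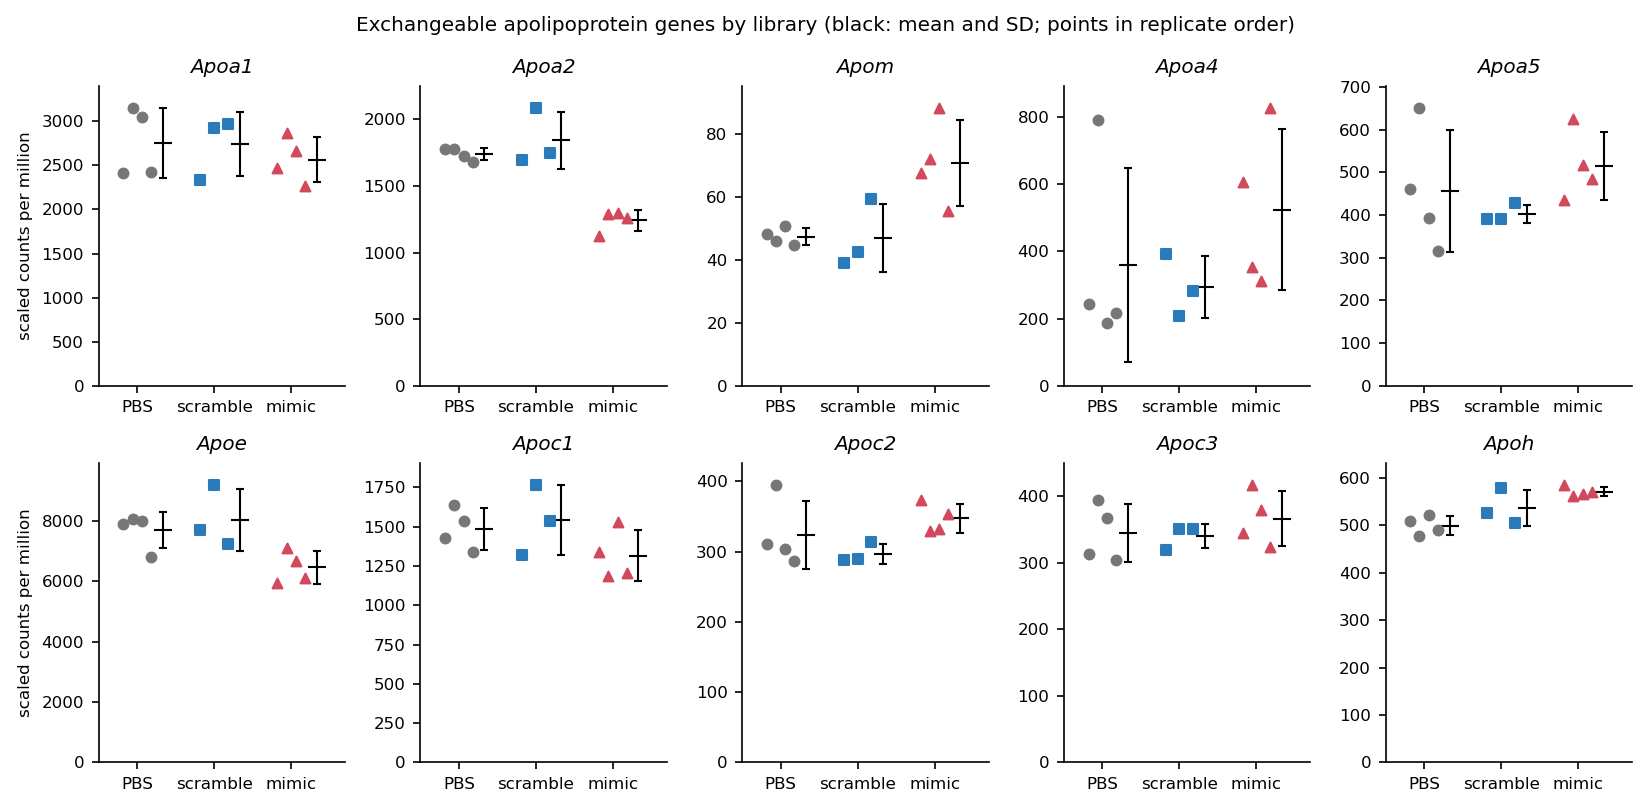
Scaled CPM of each member in each library, one panel a gene, with the mean and SD of each group in black and linear axes from 0. Apoa2 in the 4 mimic libraries (1125 to 1298) lay below all controls, Apom in the mimic libraries (55.5 to 88.2) lay above all PBS libraries, and Apoa4 ranged from 188 to 825.

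Apoa4, a protein of triglyceride-rich particles and HDL that is made in gut and liver (chromosome 9, 46240696 to 46243459, plus strand), varied more than any other member. It was 243, 791, 188 and 217 in PBS replicates 1 to 4, 391, 207 and 283 in scramble replicates 1 to 3, and 606, 352, 311 and 825 in mimic replicates 1 to 4. The high libraries were PBS replicate 2 and mimic replicates 1 and 4, and the groups overlapped. The coefficient of variation was 80.2% within the PBS group, 31.4% within the scramble group and 45.8% within the mimic group. The log2 change was 0.77 ± 0.48 against scramble (SE; 95% interval -0.28 to 1.81; limma, adjusted p = 0.24) and 0.70 ± 0.44 against PBS (SE; 95% interval -0.27 to 1.67; limma, adjusted p = 0.23). Without PBS replicate 2 the change against PBS was 1.17 and passed (limma, adjusted p = 0.014). Without mimic replicates 1 and 4 it was 0.22 against scramble and 0.15 against PBS, and without these 2 and PBS replicate 2 it was 0.62 against PBS, with limma adjusted p of 0.80, 0.85 and 0.060. Predicted genes lie across exons of Apoa4 on the other strand, and whether counting used strand is not given in the sources used here.

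The 3 genes most like Apoa4 over the 11 libraries were Tgtp1, Ifi47 and Olfr56, by Pearson r of 0.90, 0.90 and 0.90 on log2(value + 1), a search made for this gene after its values were seen. By Spearman correlation they ranked 26, 56 and 103. With group means removed the 3 most like it were Ldha (0.92), Col1a2 (0.92) and Col1a1 (0.91), an enzyme of glycolysis and the chains of type I collagen. The search took genes with a mean of at least 10, which both collagen genes reached only through the mimic libraries. Col1a1 averaged 1.86 with PBS, 1.67 with scramble and 34.1 with the mimic, and Col1a2 3.81, 3.74 and 39.6. Their likeness to Apoa4 is a description only. Tgtp1 and Ifi47 encode interferon-inducible GTPases. Tgtp1 was 42.9 in PBS replicate 2 against 3.81 to 3.95 in the other PBS libraries, and 45.8, 10.7, 12.3 and 29.9 in the mimic libraries. Saa1 was 116 in PBS replicate 2 against 26.3 to 33.7 in the other PBS libraries, and 7489, 3008, 3626 and 6231 in the mimic libraries. Tgtp1 was picked for its likeness to Apoa4, so that its order over the libraries is no separate result. The part of Saa1 and of the genes named here in the level of Apoa4 was not tested.

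Apoa5, a scarce protein that promotes lipolysis by lipoprotein lipase (chromosome 9, 46268633 to 46271919, plus strand), was 462, 649.9, 393 and 317 with PBS, 391, 390.3 and 427 with scramble, and 436, 624, 517 and 485 with the mimic. All mimic values were above all scramble values, with 436 against 427 at the nearest. PBS replicate 2 was the highest of all libraries here too. The log2 change was 0.34 ± 0.20 against scramble (SE; limma, adjusted p = 0.21) and 0.22 ± 0.19 against PBS (SE; limma, adjusted p = 0.39), and without PBS replicate 2 the change against PBS was 0.40 (limma, adjusted p = 0.049). A predicted gene, Gm47544, overlaps exons of Apoa5 on the other strand.

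Apoe, the receptor ligand of remnant particles (chromosome 7, 19696109 to 19699188, minus strand), had the highest values of the members. It was 7887, 8078, 8012 and 6805 with PBS, 7701, 9204 and 7242 with scramble, and 5942, 7115, 6681 and 6108 with the mimic. The mimic values were all below the scramble values, and PBS replicate 4 fell inside the mimic range. The log2 change was -0.31 ± 0.17 against scramble (SE; 95% interval -0.69 to 0.07; limma, adjusted p = 0.19) and -0.25 ± 0.16 against PBS (SE; limma, adjusted p = 0.23). Apoe held 44.7% to 48.1% of the summed value of the 10 members in the mimic libraries and 46.4% to 51.6% in the controls.

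The 3 C apolipoproteins did not pass against either control group. Apoc1, which hinders receptor uptake and lipase (chromosome 7, 19689481 to 19692660, minus strand), was 1427, 1639, 1537 and 1338 with PBS, 1320, 1766 and 1538 with scramble, and 1339, 1183, 1532 and 1203 with the mimic. Mimic replicates 2 and 4 were the 2 lowest of the 11 libraries, and the groups overlapped. The log2 changes were -0.23 ± 0.14 and -0.18 ± 0.13 (SE; limma, adjusted p = 0.24 and 0.31 against scramble and PBS).

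Apoc2, the cofactor that lipoprotein lipase needs (chromosome 7, 19671579 to 19677941, minus strand), was 311, 395, 304 and 287 with PBS, 287, 289.8 and 313 with scramble, and 374, 329, 333 and 354 with the mimic. Every mimic value was above every scramble value, but PBS replicate 2 was the highest of all. The log2 change was 0.23 ± 0.11 against scramble (SE; 95% interval -0.02 to 0.47; limma, adjusted p = 0.14) and 0.11 ± 0.10 against PBS (SE; limma, adjusted p = 0.43). A predicted gene without a row of its own, Gm44805, overlaps exons of Apoc2 and of Apoc4 on the same strand. How the authors' counting treated such reads is not given in the sources used here.

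Apoc3, an inhibitor of lipolysis and of remnant uptake (chromosome 9, 46232933 to 46235636, minus strand), was 313, 394, 367 and 304 with PBS, 319, 350.2 and 350.1 with scramble, and 344, 417, 379 and 324 with the mimic. The groups overlapped throughout. The log2 changes were 0.10 ± 0.12 and 0.09 ± 0.11 (SE; limma, adjusted p = 0.54 and 0.55 against scramble and PBS).

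Apoh (chromosome 11, 108343354 to 108414396, plus strand), also known as beta-2-glycoprotein I, had a coefficient of variation of 1.75% within the mimic group, the smallest of the 10 members there. It was 586, 563, 567 and 569.7 with the mimic, 526, 578 and 505 with scramble, and 509, 477, 522 and 490.3 with PBS. All mimic values were above all PBS values, and scramble replicate 2 fell among the mimic values. The log2 change was 0.19 ± 0.08 against PBS (SE; 95% interval 0.02 to 0.37; limma, unadjusted p = 0.033 and adjusted p = 0.076) and 0.09 ± 0.09 against scramble (SE; limma, adjusted p = 0.42). Exons of Apoh overlap Prkca on the other strand in the annotation.

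Scramble against PBS gave no call: 0 of the 10 members passed with limma, and 0 of them had an unadjusted p under 0.05. Of all genes 0.0% passed, with 434 of 13636 at an unadjusted p under 0.05. Values of the 2 control groups overlapped for each of the 10 members, while they did not overlap for 4.72% of all genes. The members' log2 changes, scramble minus PBS, ran from -0.13 (Apoa5) to 0.10 (Apoh).

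Among the members, 7 lie in 2 gene clusters, and the ratio of neighbours within a library needs no scaling between libraries. Apoa1, Apoc3, Apoa4 and Apoa5 lie within 43.3 kb of chromosome 9. Apoe, Apoc1 and Apoc2 lie within 27.6 kb of chromosome 7, with Apoc4 between Apoc2 and Apoc1. A ratio that differs shows that the pair changed unequally, and does not say which gene changed. The ratios are of scaled CPM and not per length. The mimic group was set against the 7 controls for 5 pairs in 2-sided exact permutation tests, adjusted over the 5, whose smallest possible p is 0.0030.

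The ratio of Apoc3 to Apoa1 was nearly fixed within the mimic group, at 0.139, 0.146, 0.142 and 0.143. It was 0.130, 0.125, 0.120 and 0.125 with PBS and 0.137, 0.120 and 0.118 with scramble. No mimic value overlapped a control value, although the nearest, 0.139 and 0.137, almost touched. The log2 ratio was higher by 0.19 with the mimic (exact permutation p = 0.0030, adjusted p = 0.015). On their own, Apoc3 and Apoa1 each overlapped between the groups. With the PBS libraries alone as controls the difference was 0.19 (exact permutation, adjusted p = 0.143), and without mimic replicates 1 and 4 it was 0.20 (exact permutation, adjusted p = 0.139). The smallest p these designs allow before adjustment is 0.0286 and 0.0278.

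The ratio of Apoc2 to Apoe was 0.0629, 0.0462, 0.0498 and 0.0580 with the mimic, 0.0394, 0.0489, 0.0379 and 0.0421 with PBS, and 0.0373, 0.0315 and 0.0432 with scramble. Only mimic replicate 2 was below a control, PBS replicate 2. The log2 ratio was higher by 0.44 with the mimic (exact permutation p = 0.0091, adjusted p = 0.0227). The call was lost without mimic replicate 1 (difference 0.36, exact permutation, adjusted p = 0.0833), without mimic replicate 4 (0.40, adjusted p = 0.0625), without both (0.27, adjusted p = 0.231) and with PBS alone as control (0.36, adjusted p = 0.143).

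The other 3 ratios did not pass. For Apoa5 to Apoa1 the log2 ratio was higher by 0.37 (exact permutation p = 0.0515, adjusted p = 0.0859). For Apoa4 to Apoa1 it was higher by 0.82 (exact permutation p = 0.115, adjusted p = 0.144), and for Apoc1 to Apoe by 0.08 (exact permutation p = 0.424). Without PBS replicate 2 the first 2 passed, at 0.44 and 1.03 (exact permutation, adjusted p = 0.0238 and 0.0476), and without PBS replicate 1 that of Apoa5 passed at 0.42 (exact permutation, adjusted p = 0.0476). The next ratios, chosen after values were seen and not tested, set the called genes against Apoa1. Apoa2 to Apoa1 was 0.449 to 0.558 with the mimic and 0.566 to 0.737 in the controls. Apom to Apoa1 was 0.0245 to 0.0331 with the mimic and 0.0145 to 0.0200 in the controls. Neither pair of ranges overlapped.

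**Figure D3:**
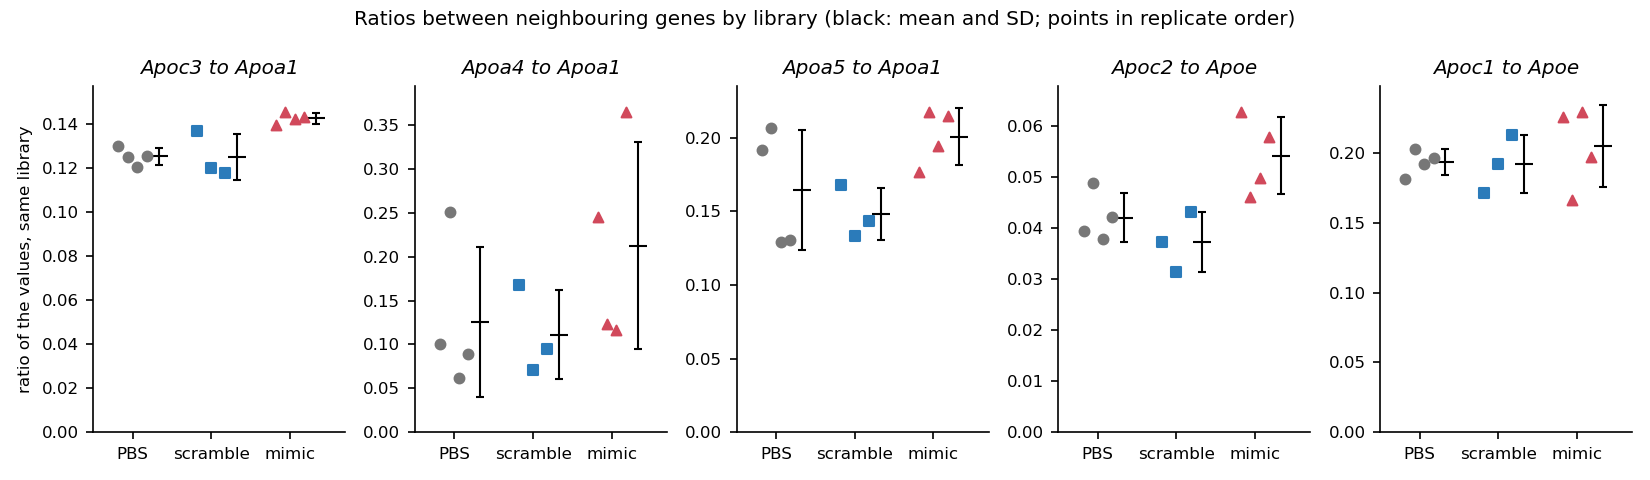
Ratio of scaled CPM within each library for the 5 pairs tested, with group mean and SD in black and linear axes from 0. For Apoc3 to Apoa1 the 4 mimic libraries (0.139 to 0.146) lay above the 7 controls (0.118 to 0.137), for Apoc2 to Apoe 1 control lay within the mimic range, and for Apoa4 to Apoa1 PBS replicate 2 (0.251) reached the level of mimic replicate 1 (0.245).

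Apoc4, a minor C apolipoprotein that was named here only for its place between Apoc2 and Apoc1, gave a ratio to Apoc2 of 0.479, 0.727, 0.658 and 0.571 with the mimic and 0.647 to 0.739 in the controls. The 2 low ratios were again those of mimic replicates 1 and 4. The log2 change of Apoc4 itself was 0.04 against scramble (limma, adjusted p = 0.81).

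Per kilobase of the longest annotated coding transcript, the order of mean levels with PBS was Apoe (5465 ± 425 scaled CPM per kilobase, SD, n = 4), Apoa2 (3358 ± 91.8), Apoc1 (2792 ± 246) and Apoa1 (2663 ± 383), then Apoc3 (486 ± 61.0), Apoc2 (446 ± 66.6) and Apoh (419.8 ± 16.5), then Apoa4 (198 ± 159), Apoa5 (181 ± 56.7) and Apom (46.8 ± 2.60). Neighbours whose library ranges overlapped, and whose order is therefore open, were Apoc1 and Apoa1, Apoc3 and Apoc2, Apoc2 and Apoh, Apoh and Apoa4, and Apoa4 and Apoa5. With the mimic Apoa2, at 2399.9 ± 154 (SD, n = 4), came after Apoa1 (2478 ± 250.2) and Apoc1 (2471 ± 303), with overlapping ranges, where it came second in both control groups. Measured over the union of annotated exons instead, Apoa1 stood above Apoc1 in all 3 groups, and Apoa2 stayed second in all 3. The place of Apoa2 with the mimic therefore depends on the length used.

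**Figure D4:**
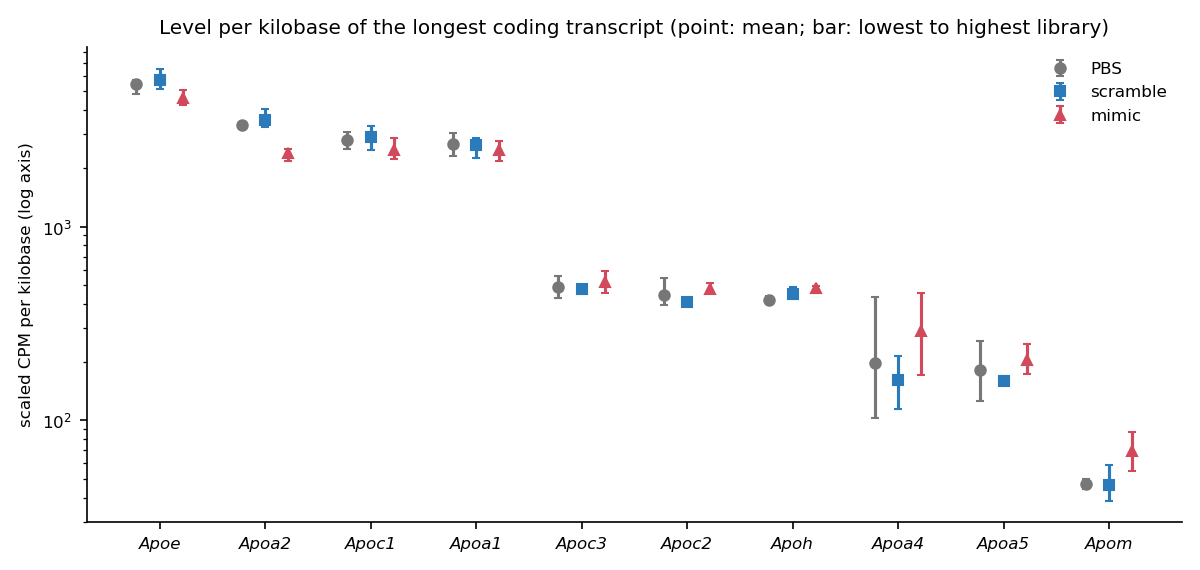
Mean level per kilobase of the longest coding transcript by group on a log axis, in the order of the PBS group, with bars from the lowest to the highest library. Apoe was highest in all 3 groups (4589 to 5717), Apom lowest (46.3 to 69.9), and Apoa4 had the longest bars.

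For the 2 called members, the genes with the most similar pattern were named as a description. The libraries share their scaling, and for both genes part of the likeness is the difference between groups. Over the 11 libraries Apoa2 was most like Tfb2m (Pearson r = 0.98), Ccdc107 (0.96) and Maob (0.96), among the 5443 genes whose mean reached 10. With the group means removed it was most like Gusb (0.90), AK180077 (0.88) and Hgfac (0.87). Apom was most like Arpc2 (0.94), Scarb1 (0.93) and Hc (0.92), and with group means removed Utp3 (0.95), Gstp1 (0.95) and Zfand6 (0.95). By Spearman correlation 4 of these 12 places stayed within the first 3. Tfb2m lies at 11.4 to 13.6 in the controls and at 6.88 to 8.19 with the mimic. Scarb1 encodes the HDL receptor SR-BI, and it was 102 to 143 with the mimic, 84.8 to 95.8 with PBS and 86.9 to 113 with scramble.

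The genes that share the pathway were read from fixed lists, each with its count in mimic against scramble. The counts stand beside 32.0% of all genes that passed there, 17.3% higher and 14.7% lower. Against PBS 37.1% of all genes passed, 20.0% higher and 17.1% lower. The name of the deposited table gives its minimum as 1 CPM in 3 libraries, so that a gene which reached it only through the mimic libraries had to be higher there. The minimum was read here on the scaled values, on which 268 genes of the table fell below it. The authors' minimum may thus have been on another scale, and the split is approximate for genes near it. The shares of all genes include the 585 genes that reached this minimum only with the mimic libraries, while the list counts leave such genes out. Of 14 other genes with apolipoprotein names, 12 reached a value of 1 in at least 3 controls, and of these 6 rose and 0 fell. They include Apof, a lipid transfer inhibitor protein, from 157 to 329 (log2 change 1.05, limma, adjusted p = 0.0012), and Clu, the chaperone clusterin or apolipoprotein J, from 637 to 1019 (0.67, adjusted p = 0.0014). The other 2 were Apobr, a receptor, and Apobec3, an antiviral DNA deaminase, and neither is an apolipoprotein. They reached 1 in 1 and 2 controls, and their log2 changes, 0.98 and 0.76, are given as a description only. Of 4 serum amyloid A genes, whose products displace apolipoproteins on HDL in the acute phase, 3 rose, Saa1 by 7.92, Saa2 by 9.22 and Saa3 by 8.12 on the log2 scale (limma, adjusted p at most 2.2e-06). Saa1 and Saa2 are near-identical, and the authors' counting could split their reads.

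Of 12 genes of lipoprotein lipases and their control, 1 rose and 3 fell. Lpl, lipoprotein lipase, rose from 21.2 to 45.2 (log2 change 1.06, limma, adjusted p = 0.00048). Lipc, hepatic lipase, fell from 85.3 to 56.4 (-0.59, limma, adjusted p = 0.0018), as did Pcsk6 (-0.88) and Lipg, endothelial lipase (-1.09). Of 19 genes of lipoprotein receptors and their control, 18 reached the minimum through the controls, and of these 6 rose and 3 fell. Lrp5 was higher (0.62), and Lrp6 (-0.46) and Sdc4 (-0.44) lower (limma, adjusted p from 0.002 to 0.009). For Sdc4 this holds against scramble only: the mimic values (175 to 227) overlapped the PBS values (203 to 222), with scramble at 240 to 292. Sorl1 reached 1 in 0 of the 7 controls (0.339 to 0.912), and its log2 change of 1.21 is likewise a description. Of 12 genes of HDL remodelling and efflux, 3 rose and 2 fell. Pon1, the HDL-bound paraoxonase, fell from 332 to 222 (-0.58, limma, adjusted p = 0.0012) and Ecm1 by 1.19 on the log2 scale, while Abcg1, a cholesterol exporter, rose by 0.97 and Pcolce by 0.92.

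Of 19 genes of very-low-density lipoprotein assembly and export, 1 rose and 8 fell. Mttp, Aadac, a lipid hydrolase of the endoplasmic reticulum (-0.69), and Sec23a, a coat protein of export vesicles (-0.71), were lower (limma, adjusted p at most 0.00053), and Tm6sf2 was higher (1.09, limma, adjusted p = 0.00014). Apob, the protein that is not exchanged, was 2416, 2337, 2459 and 2251 with the mimic, below all scramble values (2572 to 3682) and all PBS values (2881 to 3900). Its log2 change was -0.45 ± 0.16 against scramble (SE; limma, adjusted p = 0.057) and -0.48 ± 0.15 against PBS (SE; limma, adjusted p = 0.029). The latter call was lost in 8 of 24 alternatives, and the sign turned in 1 more. Among these were the fits without PBS replicate 1, 3 or 4 and without mimic replicate 2 or 4, with limma adjusted p of 0.05 to 0.09. Both kinds of totals were also among them. Against scramble Apob passed in 5 of 24 alternatives. Of 36 regulators of apolipoprotein genes, 1 rose and 8 fell: Srebf2 was higher (0.54), and Ppara (-0.67), Thrb (-0.70) and Foxo3 (-0.89) were lower (limma, adjusted p from 0.00066 to 0.0067). Against PBS the call of Foxo3 was lost in 8 of 24 alternatives. Ppara encodes the fatty acid receptor known to act on several apolipoprotein genes. Against PBS the counts, higher and lower, were 6 and 1, 3 and 0, 2 and 4, 7 and 2, 4 and 3, 1 and 9, and 1 and 9 for the 7 lists in this order, over the genes that reached the minimum through the controls. Of the 27 genes named from these lists that passed against scramble, 12 did not pass with library totals, Mttp, Aadac, Sec23a, Lipc, Pon1 and Ppara among them. The 15 that still passed include Apobr, Apobec3 and Sorl1, which did not reach the minimum through the controls.

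Scaling set the sign of several members. The deposited scaling left the median log2 change of all genes at 0.00 in both mimic comparisons. Division by library totals moved it to 0.49 against scramble and 0.51 against PBS. Then 41.1% and 51.3% of all genes passed, and 98.0% and 98.3% of these calls were higher. In that setting Apom, Apoa4, Apoa5, Apoc2, Apoc3 and Apoh were called higher in both comparisons, none was called lower, and relative to the median gene Apoa2 stood at -0.47 and -0.38. With totals taken without the 19 Mup rows the median of all genes was 0.16 in both comparisons. Apom was then called at 0.78 and 0.74, and Apoa2, at -0.37 and -0.29, was not (limma, adjusted p = 0.063 and 0.097). Apoc2 passed there against scramble (0.42) and Apoh against PBS (0.39), and Apoc2 passed against scramble under quantile normalization too (0.35, limma, adjusted p = 0.042). Apoe had a negative sign in the deposited scaling and a positive sign, with no call, under library totals and under quantile normalization. Apoa1 and Apoc1 were also negative in the deposited scaling and positive, with no call, under library totals. With totals without Mup rows Apoa1 was at 0.10 against each control group and Apoc1 at 0.014 against PBS, with no call. Apoh against scramble was at -0.01 under quantile normalization. The members together held 1.07% to 1.81% of the column totals in the controls and 1.39% to 2.22% with the mimic. Of the totals without Mup rows they held 2.22% to 2.92% and 2.37% to 2.61%.

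**Figure D5:**
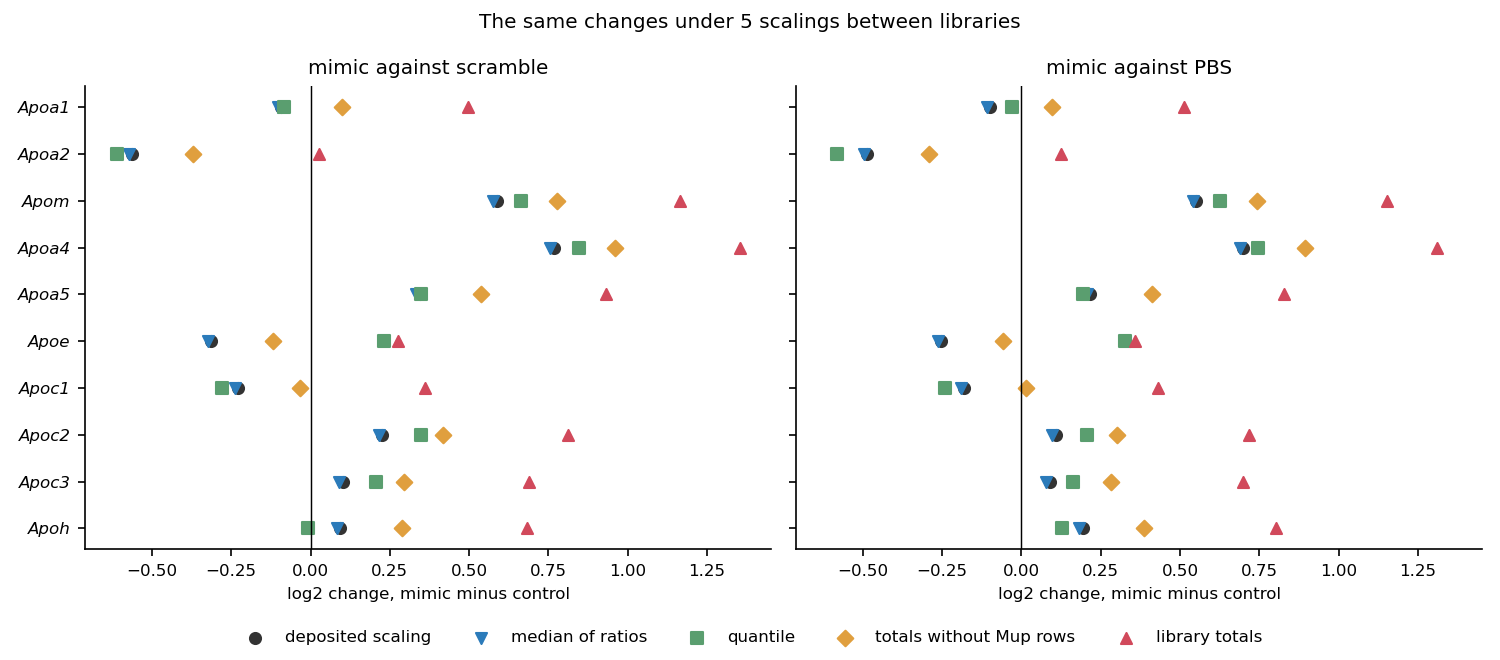
Log2 change of each member under the deposited scaling and 4 others, for mimic against scramble (left) and mimic against PBS (right). Library totals shift all members to the right, Apoa2 to 0.03 and 0.12, while Apom was positive under all 5 scalings.

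Markers of other cells were counted in the same way. The share of all genes that passed was 32.0% against scramble and 37.1% against PBS, including genes that reached the table's minimum only with the mimic libraries. Of 28 genes of Kupffer cells and macrophages, 22 reached the table's minimum through the controls, and of these 11 rose and 5 fell against scramble. The list did not move as 1: among the 5 that fell were Timd4 and Cd163, which reached 1 in all 7 controls and in no mimic library. The summed level of the 28 was 371 to 609 with the mimic, 219 to 312 with scramble and 208 to 402 with PBS. It is a description only, since 6 of the 28 did not reach the minimum through the controls. Of 5 measured neutrophil genes (of 10), 1 reached the minimum through the controls, and it rose. This was Csf3r, which lay near the minimum, at 1 or more in 3 of the 7 controls (0.697 to 1.84). The other 4, S100a8, S100a9, Ltf and Ngp, entered the table through the mimic libraries. The 5 summed to 16.2 to 35.6 with the mimic, 1.17 to 1.77 with scramble and 1.65 to 2.66 with PBS. This sum is a description only, since those 4 genes had to be higher with the mimic. Of 14 stellate cell genes that reached the minimum through the controls, 6 rose and 2 fell, and the 15 measured had sums of 219 to 402, 141 to 152 and 99.3 to 153. These sums include Acta2, which did not reach the minimum through the controls, and are a description only. Macrophages are known to make Apoe, whose level did not pass the test. Of the 14 hepatocyte markers 4 rose (the plasma proteins Hpx, Trf, Ambp and Ahsg) and 1 fell (Cyp2e1). Of 14 endothelial genes 2 rose and 2 fell (1 and 6 against PBS), of 3 bile duct genes that reached it through the controls 1 and 1 (2 and 1 against PBS), of 3 erythrocyte genes 0 and 0, and of 2 genes from pancreas, fat and muscle 0 and 1. Of 12 lymphocyte genes 0 were measured. For the gut, a source of Apoa4, the 2 measured genes of 11 were Fabp2 and Apob, which the liver also expresses, and 0 rose and 1 fell. The part of these cells in the members' values was not tested.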

How the data were processed

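Liver RNA was sequenced as paired reads of 48 bases from a stranded mRNA kit, per the labels' protocols. RNA integrity numbers were 8.4 to 9.2 for 7 libraries and are not given for 4. The submitters' processing notes name the mm10 build, Bowtie, edgeR 3.8.6 under R 3.1.2, SAMtools 0.1.19 with bedtools 2.17.0, and FastQC 0.11.3 after bcl2fastq 1.8.4. The values deposited by the authors are a signal per gene, read here as scaled CPM: within a column they are whole multiples of 1 step (tolerance 1e-06), and column totals differ. The name of the deposited table gives its filter as 1 CPM in 3 libraries. Of the 13636 genes, 13368 (98.0%) had a scaled value of at least 1 in 3 or more libraries, and 585 of them (4.29% of all) did not reach this in the controls alone. The use of strand in counting is not given in the sources used here. All 11 columns were used, and 0 were left out.

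From these values log2(value + 1) was fitted with limma 3.58.1 (R 4.3.3), with 3 group means over 11 libraries and a mean-variance trend. P-values were adjusted by Benjamini-Hochberg over 13636 genes, with a threshold of 0.05. The fit was tested on simulated data. Within-library ratios, log2((a + 1)/(b + 1)), were compared by exact permutation tests over all arrangements of the libraries, written in Python with NumPy. Other work used Python 3.11.15, NumPy 2.4.6, pandas 2.3.3 and matplotlib 3.10.9. Gene positions and UTRs came from a GENCODE annotation of GRCm38, and promoters and microRNAs from RefSeq.

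The members and lists were chosen with earlier results of these data known. In each pathway list up to 4 genes were named, those with the smallest adjusted p among those that passed against scramble, and Mttp and Apob were named in addition. For each member that passed there, the 3 genes most correlated with it were named, across libraries and with group means removed, among genes whose mean reached 10. Alternatives covered the pseudocount, filters, scaling, the replicate block and left-out libraries. The count of reads in a column limits precision, and the libraries of a group differed by more than sampling noise (chi-square per degree of freedom 61.0 to 1333 over 15 pairs), so that all were kept as separate samples.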

Additional observations from a re-analysis of the deposited data

Results flagged for a closer look

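Among the 40 groups of 4 libraries tested, 2 held a library far from the others, and chance alone would mark about 1 in 20 groups, or 2.0. Apoa4 in PBS replicate 2, at 791 scaled CPM, lay far above the other PBS libraries (188 to 243), and Apoe in PBS replicate 4, at 6805, lay below the other PBS libraries (7887 to 8078).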

How the results depend on the processing

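The number of members called was 2 in each mimic comparison. It became 6 with library totals in both comparisons and 4 with library weights against scramble, and it was 3 with quantile normalization against scramble. The share of all genes that passed was 41.1% and 51.3% with library totals. Against scramble it was 41.8% with library weights and 31.1% with quantile normalization. Leaving out 1 library at a time gave 1 to 2 members against scramble (1 without scramble replicate 1 or 2) and 2 to 4 against PBS (4 without PBS replicate 2). Without scramble replicate 1 or 2, 20.7% and 25.4% of all genes passed against scramble. Without PBS replicate 2, 41.7% passed against PBS. Scramble against PBS called 0 members in each of its 24 alternatives. Library totals turned the sign of Apoa2 (log2 change 0.025 against scramble, 0.12 against PBS), Lrp6 (0.11, 0.10) and Pon1 (0.0036, 0.18), of Sdc4 against scramble (0.15), and of Apob (0.13), Lipc (0.094), Ppara (0.14) and Thrb (0.056) against PBS, as the median gene moved to 0.49 and 0.51. The log2 ratio of Apoc3 to Apoa1 lost its call with PBS alone (0.19) and without mimic replicates 1 and 4 (0.20), where the smallest possible p is 0.0286 and 0.0278 before adjustment, and ranged from 0.18 to 0.21 with 1 library left out. That of Apoc2 to Apoe lost it with PBS alone (0.36) and without both mimic libraries (0.27), and ranged from 0.36 to 0.51. That of Apoa5 to Apoa1 passed with scramble alone (0.44) and ranged from 0.32 to 0.44, and that of Apoa4 to Apoa1 ranged from 0.51 to 1.06, passing without PBS replicate 2 (1.03). The cause of these changes was not tested. Of all genes, 4363 passed against scramble and 5059 against PBS, and 2816 and 3273 of genes with a mean of at least 5. Without mimic replicates 1 and 4 these counts were 2548 and 2894, and without scramble replicate 1 the first was 2824. The replicate block called 2, 2 and 0 members, beside 27.9%, 33.6% and 0.0% of all genes. The numbers did not pair the libraries (4 of 10 same-numbered pairs had a correlation over 0.1, range -0.36 to 0.30). Leaving out mimic replicates 1 and 4 with PBS replicate 2, chosen after seeing the data, called 3 and 3 members, Apoa5 being added (0.50 and 0.56). There 25.2% and 31.4% of all genes passed. The planned count tests were not run, since it could not be shown for 9 of the 11 columns that 1 step is 1 read, although all values were whole multiples of a step. The read totals given rest on that assumption.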
